A study of Rattus norvegicus with 7 samples.

Results

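The vehicle arrays followed ROE2 cells that received no NaF for 12 h. ROE2 is an immortalized epithelial line from the tongue of an 18-day-old Wistar rat fetus that carried a temperature-sensitive SV40 large T-antigen gene, which every culture of the series shared. Cells were maintained at 33 °C with insulin, transferrin and EGF, moved to 37 °C in medium with 2% serum for 24 h, and then given medium with 2% serum and sterilized water at 1% as vehicle. One group of 4 arrays held vehicle at 0, 3, 6 and 12 h, and the remaining 3 of the 7 arrays held cells given 2 mM NaF for 3, 6 and 12 h. The 0 h array is labelled as a vehicle control without a time, and it was taken as 0 h from the study's methods. Each array held RNA pooled from 3 independent experiments, so each time was measured on 1 array and no difference between times had a replicate. The members were the 9336 named probe sets, of 31099 on the array, that reached log2 7 on any vehicle array. They stood for 7573 genes, each represented by its brightest probe set. The lowest member reached 7.0005 on its highest vehicle array, and the probe set next below the limit reached 6.9996.

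Epithelial cells in culture release chemokines and colony-stimulating factors, many of which are transcribed under the control of NF-kB and have short-lived mRNAs. NF-kB also induces its own inhibitors, such as Nfkbia and Tnfaip3, so that these transcripts are commonly read as a gauge of the pathway. Growth factors and serum induce immediate early genes such as Egr1 and feedback phosphatases such as Dusp6, whereas hypoxia raises another set through HIF, among them Vegfa and Egln3. A vehicle time course shows how far such genes move in the dish without the compound.

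The keratin genes Krt14 and Krt5 were bright on all vehicle arrays. On the 4 vehicle arrays Krt14 read 14.12, 14.10, 14.10 and 14.14 (log2 signal at 0, 3, 6 and 12 h), and Krt5 read 13.60, 13.55, 13.55 and 13.58. Of 12 epithelial markers 11 were members, all but Krt18, and 7 of these 11 had a mean vehicle signal of log2 10 or more. Each of the mesenchymal, leukocyte, skeletal muscle and endothelial lists had 1 member, Vim, Cd14, Myh1 and Egfl7, while Col1a1, Ptprc, Myod1 and Pecam1, for example, did not reach the limit. Mean vehicle signals of Vim, Cd14, Myh1 and Egfl7 were 11.35, 10.06, 9.67 and 7.28, beside a median of 10.94 over the epithelial members. The name of the Myh1 probe set marks probes that match other sequences too. Gapdh, used as a reference gene, read 13.26, 13.18, 13.24 and 13.26.

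Most of the transcriptome stayed close to its 0 h level. At 3, 6 and 12 h, 81.6%, 86.3% and 83.5% of the 7573 genes lay within 0.2 of 0 h on the log2 scale, and the median difference from 0 h was 0.07, 0.04 and 0.03. At 3 h, 11 genes (0.145%) were higher and 3 (0.0396%) lower by 1.5-fold or more, which is 0.585 on the log2 scale. At 6 h the counts were 7 (0.0924%) and 3 (0.0396%), and at 12 h they were 19 (0.251%) and 15 (0.198%). No gene was past 2-fold at 3 or 6 h, and at 12 h only Cxcl2, Csf2 and Il1a were, all of them lower. These counts are differences of single arrays and carry no test. With quantile normalization the split of higher and lower genes was 4 and 6 at 3 h and 9 and 19 at 12 h, and with medians set equal it was 5 and 6 at 3 h and 12 and 19 at 12 h.

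Limma fits over the 4 arrays, 2 in all, called no probe set at an adjusted p under 0.05. The linear trend over hours called 0 of 11159 (0.0%), with 948 at an unadjusted p under 0.05 and a smallest adjusted p of 0.5313. The mean of the 3 later arrays against 0 h also called 0 of 11159 (0.0%), with 1300 at an unadjusted p under 0.05 and a smallest adjusted p of 0.3628. Both fits had 2 residual degrees of freedom, and their p-values measure the spread between arrays of different times. No gene below therefore passed a test, and all values are given as measured signals and differences.

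The arrays also differed in technical readouts. The 18 spiked-in hybridization controls were above their 0 h signal in 18, 17 and 18 cases at 3, 6 and 12 h, with median differences of 0.19, 0.15 and 0.23, and the 7 dim ones differed by medians of 0.47, 0.28 and 0.39. The gap between the 3′ and 5′ probe sets of beta-actin, a measure of how much of the transcript was labelled, was 1.98, 2.83, 1.53 and 1.54 at 0, 3, 6 and 12 h, so that the 3 h array had the widest gap. Of the 11 genes higher at 3 h, 10 had a mean vehicle signal under log2 8 and 9 were under log2 7 at 0 h. Of the 19 higher at 12 h, 15 and 10 were so. Of the 15 genes lower at 12 h, by contrast, 7 had a mean signal of log2 10 or more, where the median gene differed from 0 h by 0.00. The part of these readouts in the differences was not tested.

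**Figure D1:**
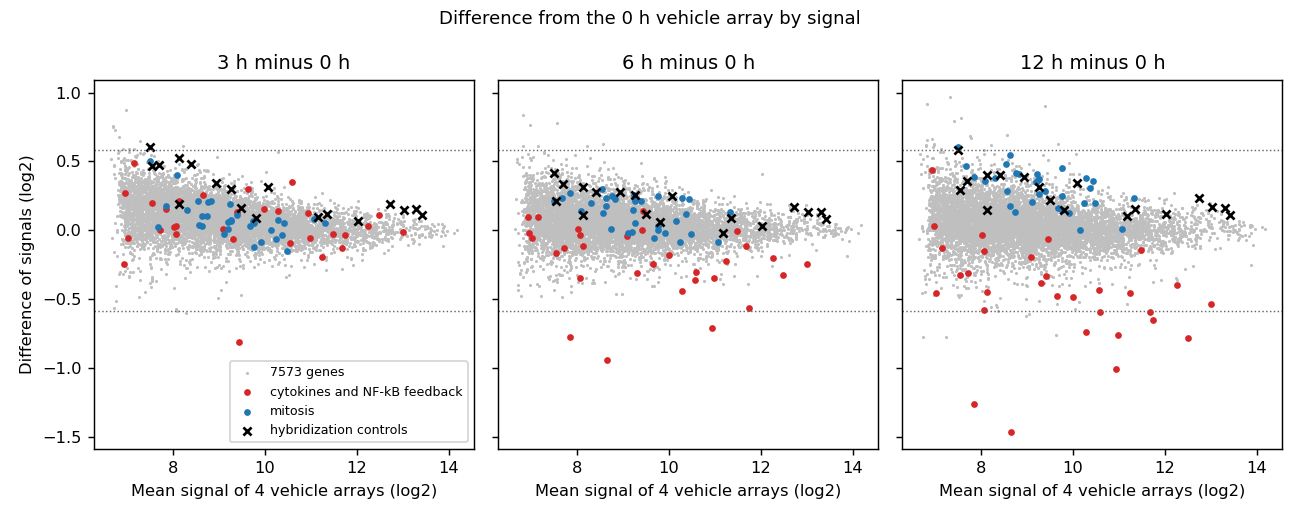
Difference of each later vehicle array from the 0 h array (log2, y axis) against the mean signal of the 4 vehicle arrays (log2, x axis). Grey points are the 7573 genes, red points the 30 cytokine and NF-kB feedback genes, blue points the 32 mitosis genes, crosses the 18 hybridization controls, and dotted lines mark 1.5-fold. Dim genes and dim controls sat above 0 at 3 h, and the red points spread below 0 at 12 h, down to -1.47 for Cxcl2.

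The cytokine and NF-kB feedback genes held the 3 lowest differences of the 12 h array and 9 of the 15 genes lower by 1.5-fold. Of 44 listed genes 30 were members, and 9 of these 30 (30%) were lower at 12 h by 1.5-fold or more, against 0.198% of all genes. By 1.3-fold or more, 19 of 30 (63.3%) were lower, against 0.911% of all genes, and 28 of 30 lay below 0, whereas 59.4% of all genes lay above it. The median difference from 0 h of the 30 members was 0.03, -0.19 and -0.45 at 3, 6 and 12 h, beside 0.07, 0.04 and 0.03 for all genes. At 1.3-fold they were 19 of 69, so that most genes lower by that size lay outside the list. Because the arrays read RNA of whole cultures, less RNA per cell and fewer producing cells cannot be told apart here or below.

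Chemokines and colony-stimulating factors led the group. Cxcl2, a neutrophil chemokine, read 9.19, 9.45, 8.25 and 7.73 at 0, 3, 6 and 12 h. Csf2, which encodes GM-CSF, read 8.32, 8.47, 7.54 and 7.05. Il1a, an epithelial alarmin and upstream inducer of chemokines, read 11.33, 11.46, 10.63 and 10.33. All of these 3 genes were slightly above 0 h at 3 h and below every earlier array at 12 h, and the 12 h differences were -1.47, -1.26 and -1.004. The limma slopes were -0.14 ± 0.03 (SE), -0.12 ± 0.02 and -0.10 ± 0.02 per hour, with an adjusted p of 0.5313 for each.

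Further cytokine and chemokine genes were also lowest at 12 h, with smaller differences from 0 h and not all with a higher signal at 3 h. Cxcl1, another neutrophil chemokine, read 12.74, 12.85, 12.42 and 11.96. Ccl20, which attracts dendritic cells and T cells that carry CCR6, read 10.54, 10.68, 10.10 and 9.80. Csf3, which encodes G-CSF, read 10.72, 11.07, 10.41 and 10.12. Each of these 3 was highest at 3 h and lowest at 12 h. Ccl7, a monocyte chemokine, read 11.26, 11.21, 10.91 and 10.50, and was lower on each array than on the one before. Ccl2, its neighbour in function, read 13.20, 13.19, 12.95 and 12.66. Il24, a cytokine of the IL-10 family, read 12.05, 12.02, 11.49 and 11.40, most of its difference lying between 3 and 6 h. Cxcl3 read 11.89, 11.77, 11.78 and 11.29, with its difference after 6 h. Cxcl1, Cxcl2 and Cxcl3 are paralogs, and whether their probes share signal was not tested.

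The timing was shared by most of the list. From 0 to 3 h, 17 members were higher and 12 lower, with a median of 0.03. From 3 to 6 h, 25 of 30 (83.3%) were lower, with a median of -0.28, beside 60.3% of all genes. A similar share was lower in this step in some other lists, such as 84.2% of hypoxia targets, with a median of -0.10. Bcl3 reached the limit only at 3 h, so by that rule it was lower at 6 and 12 h than at 3 h. From 6 to 12 h 28 of 30 were lower, with a median of -0.23, beside 52.2% of all genes. Against the 3 h array in place of the 0 h array, 28 of 30 were lower at 12 h, with a median of -0.50, beside 62.1% of all genes. The lower signals at 12 h were thus also seen without the 0 h array. A second probe set of Il1a differed from 0 h by -0.77 at 12 h, and 2 further probe sets of Cxcl3 by -0.56 and -0.615. The name of the Cxcl3 probe set at -0.56 marks probes that match other sequences too. Outside the list, Pdlim5 differed by -0.62 at its brightest probe set and by only -0.11 at another.

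**Figure D2:**
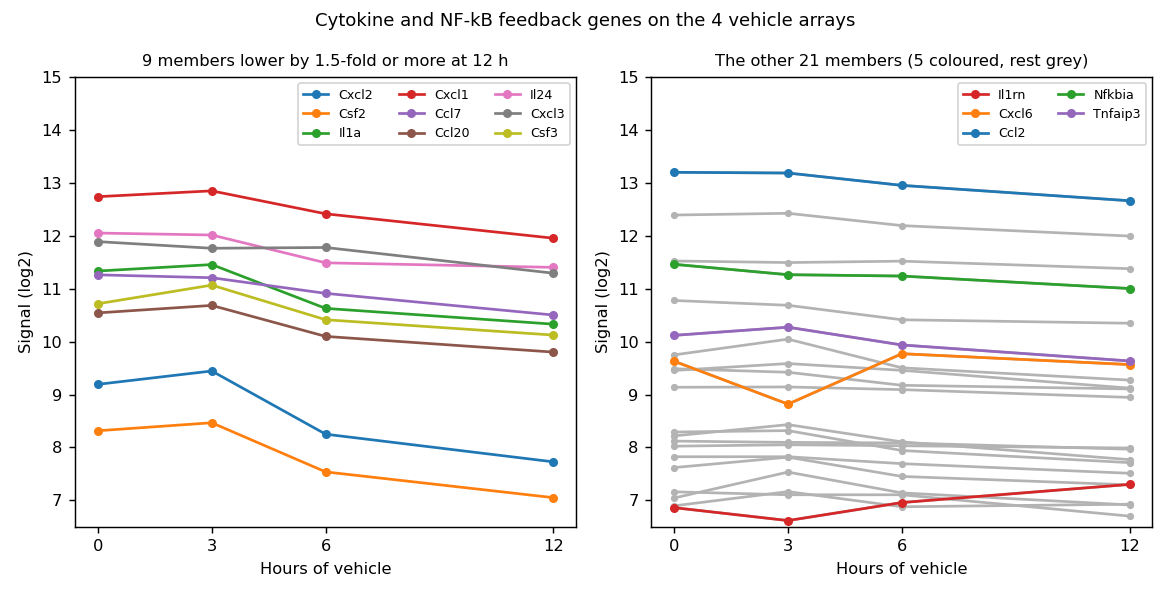
Signal (log2, y axis) of the 30 cytokine and NF-kB feedback genes on the vehicle arrays at 0, 3, 6 and 12 h (x axis), 1 array a time and no error. The left panel holds the 9 genes lower by 1.5-fold or more at 12 h, and the right panel the other 21, of which Il1rn ended higher at 7.30 and Cxcl6 dipped to 8.82 at 3 h alone.

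The inhibitors that NF-kB induces were lower as well, by less. Nfkbia, which encodes the inhibitor IkB-alpha, read 11.46, 11.27, 11.24 and 11.004. Tnfaip3, which encodes the ubiquitin-editing enzyme A20, read 10.12, 10.27, 9.94 and 9.63. Nfkbiz, an atypical IkB protein, read 10.78, 10.69, 10.41 and 10.35. Nfkbia and Nfkbiz were lower on each array than on the one before, as were 7 of the 30 members (23.3%), against 3.97% of all genes. The subunit genes Nfkb1, with 9.49, 9.42, 9.17 and 9.11, and Relb, with 8.22, 8.43, 8.11 and 7.77, were also lowest at 12 h.

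A few members went another way. Il1rn, the natural antagonist of the IL-1 receptor, read 6.86, 6.62, 6.96 and 7.30 and was the only member higher by 1.3-fold at 12 h. It was a member only through the 12 h array on which it was high, and none of the 28 members with a mean signal of log2 7 was above 0 h at 12 h. Cxcl6 read 9.63, 8.82, 9.77 and 9.57, so that only the 3 h array was low, by -0.81, the lowest difference of any gene at that time. Cxcl12, a chemokine of stem cell homing, read 8.02, 8.05, 8.03 and 7.99.

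Some genes outside the list were named by the size of their 12 h difference, over all genes or within their own list. Nfkbid, another atypical IkB protein, read 7.07, 6.91, 6.64 and 6.30, with a slope of -0.07 ± 0.01 per hour (SE; adjusted p 0.5313, limma). Ripk2, the kinase that relays NOD receptor signals to NF-kB, read 9.93, 9.86, 9.53 and 9.17. Rsad2, the antiviral protein viperin, read 7.52, 7.61, 7.04 and 6.74, but it was the only one of 14 interferon response members past 1.3-fold, and the median of that list at 12 h was -0.04. Fas, the death receptor that NF-kB and p53 can both induce, read 8.48, 8.28, 8.13 and 7.93.

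The upstream regions of several chemokine genes hold the motif that NF-kB binds. Of the 30 members 24 had a promoter entry in RefSeq (build GRCr8), and 9 of these 24 (37.5%) held a match to the NF-kB consensus on either strand within the 250 bases before the start. The share was 4.09% of the 6438 analysed genes with an entry and 3.52% of all 27457 promoters. The motif was searched after the values were seen, and a match is a description of the letters, not evidence of binding. The stretches around the matches of 4 members whose signals are given above are shown because they carry this motif close to the start, with the matched bases in capitals, 5′ to 3′ on the gene's strand.
Cxcl1 (chr14:17479375-17479425, minus strand): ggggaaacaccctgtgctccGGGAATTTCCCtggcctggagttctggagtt
Cxcl2 (chr14:17467299-17467349, minus strand): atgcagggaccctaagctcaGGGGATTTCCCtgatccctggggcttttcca
Ccl20 (chr9:91837050-91837099, plus strand): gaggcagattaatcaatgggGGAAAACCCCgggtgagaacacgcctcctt
Nfkbia (chr6:78597074-78597123, minus strand): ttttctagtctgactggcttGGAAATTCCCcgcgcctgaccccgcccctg
In Cxcl1 and Cxcl2 the capitals cover 2 matches that overlap by all but 1 base. No match was found in the windows of Csf2, Il1a and Ccl7, which were lower at 12 h as well. The window of Cxcl6 held 2 matches, and Cxcl6 differed from 0 h by only -0.06 at 12 h. Among other lists with more than 1 promoter entry, the share ran from 0% (glycolysis, for example) to 25% (3 of 12 interferon response members).

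The lower signals set the baseline for the NaF arrays of the same genes. The comparisons of a NaF array with vehicle at 12 h and with vehicle at 0 h share that NaF array, so their values are given side by side only. Csf2 read 8.32 on the 12 h NaF array, which was 1.26 above vehicle at 12 h and 0.00 from vehicle at 0 h. Cxcl2 read 11.65, or 3.92 above vehicle at 12 h and 2.46 above 0 h. Il1a read 12.33, or 2.003 above vehicle at 12 h and 0.9987 above 0 h. Ccl20 read 10.74, or 0.94 above vehicle at 12 h and 0.20 above 0 h. Over the 30 members the median was 0.92 against vehicle at 12 h and 0.29 against vehicle at 0 h. Between arrays that share nothing, the members differed from 3 to 12 h by a median of -0.50 with vehicle and 0.41 with NaF, but Ccl7 was lower at 12 h than at 3 h in both, with differences of -0.705 with vehicle and -0.80 with NaF.

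**Figure D3:**
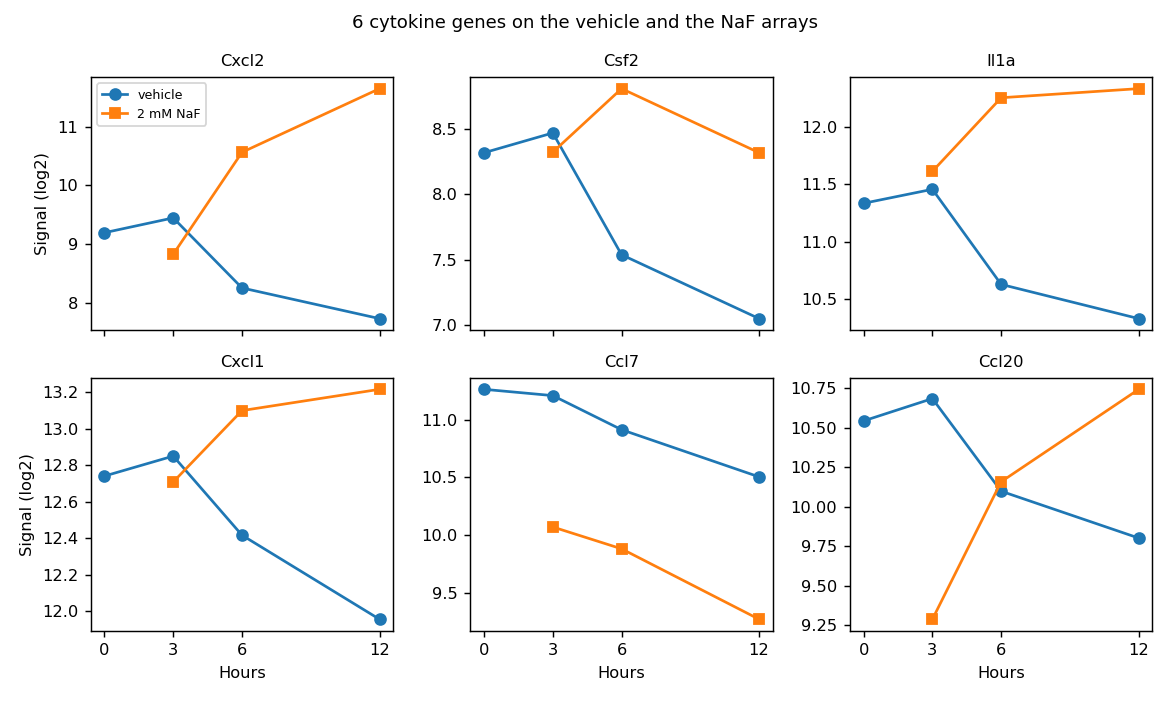
Signal (log2, y axes with different ranges) of 6 cytokine genes against hours (x axis) on the 4 vehicle arrays (circles) and the 3 arrays with 2 mM NaF (squares), 1 array a point and no error. Vehicle ended below its 0 h signal in all 6, and for Csf2 the NaF array at 12 h and the vehicle array at 0 h both read 8.32.

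Mitosis genes were mostly higher at 12 h by small amounts. They were 1 of the 19 genes higher by 1.5-fold and 10 of the 149 higher by 1.3-fold, so that most genes on that side lay outside the list. Of 35 listed genes 32 were members, and 31 of 32 (96.9%) were above 0 h at 12 h, beside 59.4% of all genes. By 1.3-fold or more 10 of 32 (31.2%) were higher at 12 h, against 1.97% of all genes, and 17 of 32 (53.1%) were higher on each array than on the one before, against 7.71% of all genes. None was lower by 1.3-fold. The median difference was 0.06, 0.14 and 0.33 at 3, 6 and 12 h, and 31 of 32 were higher at 12 h than at 6 h, beside 44% of all genes. Of the hybridization controls, the 12 in the signal range of these genes differed from 0 h by a median of 0.33 at 12 h, the size seen for the mitosis genes, whereas the 5972 genes in that range differed by 0.03. At 3 and 6 h these controls had medians of 0.33 and 0.25, and the mitosis genes 0.06 and 0.14. The part of such array differences in the mitosis signals was not tested.

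The members act at successive points of cell division. Hmmr, which organizes spindle microtubules, read 8.40, 8.50, 8.64 and 8.95. Espl1, the separase that opens cohesin at anaphase, read 8.29, 8.50, 8.59 and 8.77. Cenpe, a kinetochore motor, read 7.50, 7.52, 7.73 and 7.97. All of these 3 were higher on each array than on the one before, and their 12 h differences were 0.55, 0.48 and 0.47. Ccnb1, the cyclin that activates Cdk1 at the entry into mitosis, read 9.56, 9.63, 9.81 and 10.01. Aurka, a centrosomal kinase, read 8.55, 8.75, 8.80 and 8.96. Cdc25b, the phosphatase that starts Cdk1 activation, read 7.17, 7.67, 7.39 and 7.78, was the single member past 1.5-fold at 12 h, and went up and down between arrays. Ccna2, which acts from S phase on, read 10.13, 10.13, 10.20 and 10.12 and stayed near 0 h. Outside the list, Aspm, a spindle pole protein, read 9.42, 9.44, 9.80 and 10.05, and Cenpt, a kinetochore protein, read 7.34, 7.83, 7.86 and 8.03. Against the 3 h array Cenpt differed by 0.19 at 12 h in place of 0.69. Smc4, a condensin subunit of mitotic chromosomes that is also outside the list, went the other way with 8.42, 7.85, 8.07 and 7.90.

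DNA replication genes differed by less. All but 4 of 32 members were above 0 h at 12 h (87.5%, beside 59.4% of all genes), with a median of 0.11, but only 1 of 32 was higher by 1.3-fold (3.12%, against 1.97% of all genes). That gene was Rfc3, a subunit of the clamp loader, with 8.76, 9.05, 9.12 and 9.24. Mcm2, a subunit of the replicative helicase, read 9.94, 10.03, 9.88 and 9.94. The median of this list was already 0.14 at 3 h and 0.09 at 6 h, without the increase over the arrays seen for mitosis. The 14 hybridization controls in the signal range of these genes had medians of 0.31, 0.23 and 0.30 at 3, 6 and 12 h. They thus had the same order of arrays as the list, and their part in it was not tested.

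Mitosis genes are known to share 2 promoter elements, the CCAAT box bound by NF-Y and the cell cycle homology region (CHR) bound by the MuvB complexes. Of the 28 mitosis members with a RefSeq entry 24 (85.7%) held CCAAT and 14 (50%) held TTTGAA on either strand within 250 bases before the start. The shares were 36.4% and 10% of analysed genes and 34.3% and 16% of all promoters. Of 27 DNA replication members with an entry 16 (59.3%) held CCAAT and 2 (7.41%) TTTGAA. Other lists held CCAAT in shares from 18.8% (hypoxia targets) to 100% (15 of 15 ER chaperone members), with 81.2% for cholesterol synthesis. A high CCAAT share was thus not particular to mitosis genes. These motifs were also searched after the values were seen. The stretches of 3 members whose signals are given above are shown because they differ in which of the elements they hold, with CCAAT, its reverse complement ATTGG and TTTGAA in capitals.
Hmmr (chr10:25665236-25665463, minus strand): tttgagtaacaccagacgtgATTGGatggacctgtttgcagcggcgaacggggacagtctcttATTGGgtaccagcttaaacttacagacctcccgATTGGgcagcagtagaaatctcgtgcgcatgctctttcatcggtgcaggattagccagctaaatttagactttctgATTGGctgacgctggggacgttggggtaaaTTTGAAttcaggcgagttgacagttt
Espl1 (chr7:135302596-135302658, plus strand): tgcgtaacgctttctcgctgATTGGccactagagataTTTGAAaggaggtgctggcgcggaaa
Ccnb1 (chr2:33655251-33655327, minus strand): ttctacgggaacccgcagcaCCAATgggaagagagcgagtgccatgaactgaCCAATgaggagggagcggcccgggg
Hmmr held 4 CCAAT boxes and 1 TTTGAA, Espl1 held 1 of each, and Ccnb1 held 2 CCAAT boxes with no TTTGAA in this window. The window of Aurka held neither, although its signal followed the same course.

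Single epithelial genes were higher at 12 h, while the epithelial lists as a whole were near 0 h. Of 11 epithelial markers 6 (54.5%) were above 0 h at 12 h, with a median of 0.02, beside 59.4% of all genes. Of 23 genes of the basal layer, integrins and matrix 11 (47.8%) were above 0 h, with a median of -0.01. The tight junction gene Cldn1 read 9.91, 9.92, 9.78 and 9.59. Krt15, a keratin of basal cells, read 6.97, 7.05, 7.31 and 7.94, the largest difference upward of any gene at 12 h at 0.97 (1.96-fold), with a slope of 0.08 ± 0.01 per hour (SE; adjusted p 0.5313, limma). Krt13, the keratin of suprabasal cells in non-cornified oral epithelium, read 9.05, 9.04, 9.54 and 9.96. Sprr3, a cornified envelope precursor of the tongue and esophagus, read 8.17 at 0 h and 8.79 and 8.86 at 6 and 12 h. Tp63, the transcription factor of basal epithelium, read 9.22, 9.34, 9.53 and 9.64. Fat2, an atypical cadherin of stratified epithelium, read 6.48, 6.58, 7.02 and 7.10, and reached the limit only at 6 and 12 h. Of 22 squamous differentiation members, 2 (9.09%) were higher by 1.5-fold at 12 h, Krt13 and Sprr3, against 0.251% of all genes. In the same list 11 (50%) were above 0 h, beside 59.4% of all genes. The list's median was 0.01 at 12 h and -0.03 with medians set equal. Krt17 read 13.52, 13.54, 13.51 and 13.56, and Tgm1, the transglutaminase of the envelope, read 12.02, 12.08, 12.16 and 12.01.

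Among the other genes higher at 12 h, some are not known for a role in oral epithelium. Gzmb, the granzyme of cytotoxic lymphocytes, read 7.45, 7.86, 7.69 and 8.12 and differed by 0.67, and its second probe set differed by 0.71. Of the 8 leukocyte markers only Cd14 was above the limit, and it read 10.11, 10.09, 10.06 and 9.99. A part of other cells in the Gzmb signal was not tested. Slfn4, a schlafen family gene, read 7.09, 7.37, 7.87 and 7.91. Aass, an enzyme of lysine breakdown, read 7.16, 7.21, 7.31 and 7.96, with most of its difference after 6 h (0.65 of 0.80). Galr2, a galanin receptor, read 6.24, 6.82, 7.08 and 7.15, close to the limit, from a probe set whose name marks probes that match other sequences too. The intraflagellar transport genes Ift81 and Ift172 were higher already at 3 h. Ift81 read 7.75, 8.36, 8.36 and 8.37, a step of 0.62 ± 0.05 (SE) between 0 h and the later arrays, with an adjusted p of 0.3628 in limma. Ift172 read 6.40, 6.96, 6.85 and 7.06, and it was a member only through the 12 h array on which it was highest. Against the 3 h array Ift81 differed by 0.01, Ift172 by 0.10 and Galr2 by 0.34 at 12 h.

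**Figure D4:**
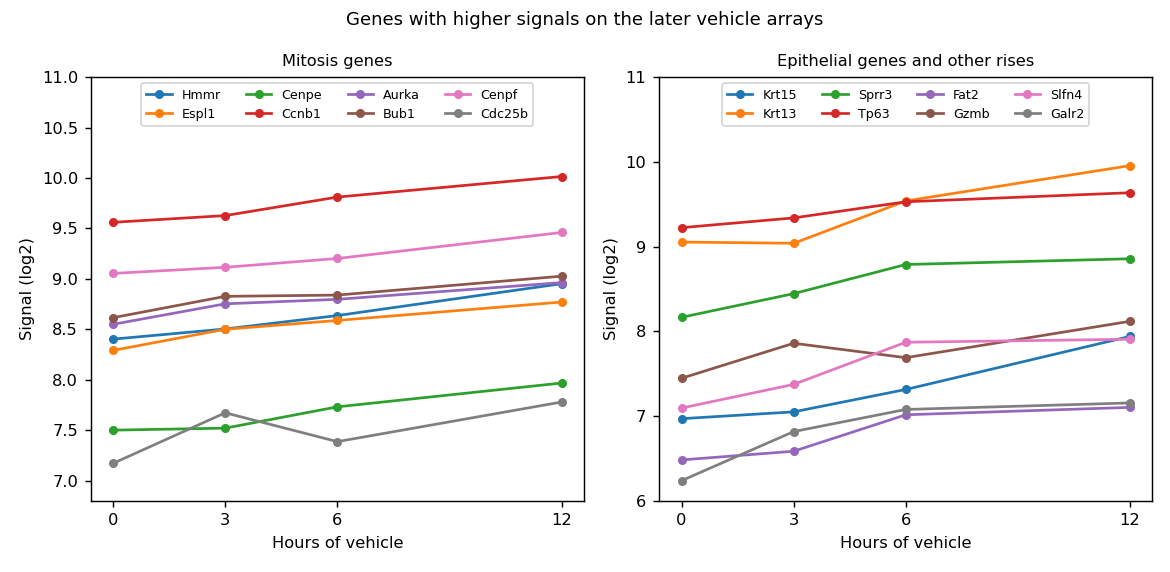
Signal (log2, y axes) of 8 mitosis genes (left) and 8 epithelial and other genes (right) against hours of vehicle (x axis), 1 array a point and no error. Hmmr, Espl1, Cenpe and Ccnb1 were higher on each array than on the one before, Cdc25b was not, and Krt15 reached 7.94 at 12 h.

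Early response genes were mostly higher at 3 h than at 6 h. Of 36 listed immediate early genes 24 were members, and Fos, Fosb, Egr2, Egr3 and Nr4a1 were among the 11 that stayed below the limit on all vehicle arrays. At 3 h, 18 of 24 (75%) were above 0 h with a median of 0.12, near the 73.4% and 0.07 of all genes, or 15 of 24 with a median of 0.04 when medians were set equal. From 3 to 6 h, 20 of 24 (83.3%) were lower, beside 60.3% of all genes. In the same step 16 of 19 hypoxia targets (84.2%), 10 of 12 clock genes (83.3%) and 17 of 19 cholesterol synthesis genes (89.5%) were lower too. Mitosis genes went the other way, with 23 of 32 higher. The step was thus not particular to early response genes. At 12 h 8 of the 24 (33.3%) were above 0 h, beside 59.4% of all genes. Ier5l and Zfp36 reached the limit only at 3 h, so by that rule they were above 0 h then and lower at 6 h. Of the 21 members with a mean signal of log2 7 or more, 16 were above 0 h at 3 h, with a median of 0.10. None of the 24 passed 1.5-fold at any time. Egr1, a zinc finger factor induced by serum and growth factors, read 9.97, 10.53, 10.27 and 10.36, and was the only member higher by 1.3-fold at 12 h. Maff, a small bZIP factor, read 7.43, 7.82, 7.43 and 7.18. Atf3, a stress-induced bZIP factor, read 7.78, 8.04, 7.46 and 7.41, and Ccn1, a matricellular protein, read 10.07, 10.11, 9.82 and 9.67. The beta-actin gap given above was widest on the 3 h array as well.

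Feedback genes of the EGF receptor and MAP kinases had the same order of arrays. Of 16 members 15 were above 0 h at 3 h, beside 73.4% of all genes, with a median of 0.19, or 12 with a median of 0.11 when medians were set equal. At 12 h 5 (31.2%) were above 0 h, with a median of -0.16, beside 59.4% of all genes. Dusp6, the phosphatase that removes ERK activation, read 10.02, 10.44, 9.87 and 9.78. The mean of its 3 member probe sets differed from 0 h by -0.09 at 12 h, in place of -0.25 for the brightest. Spry2, an inhibitor of receptor tyrosine kinase signalling, read 8.78, 9.06, 8.60 and 8.40. The ligand genes Hbegf, with 7.66, 7.93, 7.50 and 7.37, and Areg, with 9.83, 9.90, 9.59 and 9.50, had the same course, whereas the receptor gene Egfr read 9.21, 9.37, 9.33 and 9.54 and was highest at 12 h. One member of the list (6.25%) was lower by 1.3-fold at 12 h, against 0.911% of all genes.

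**Figure D5:**
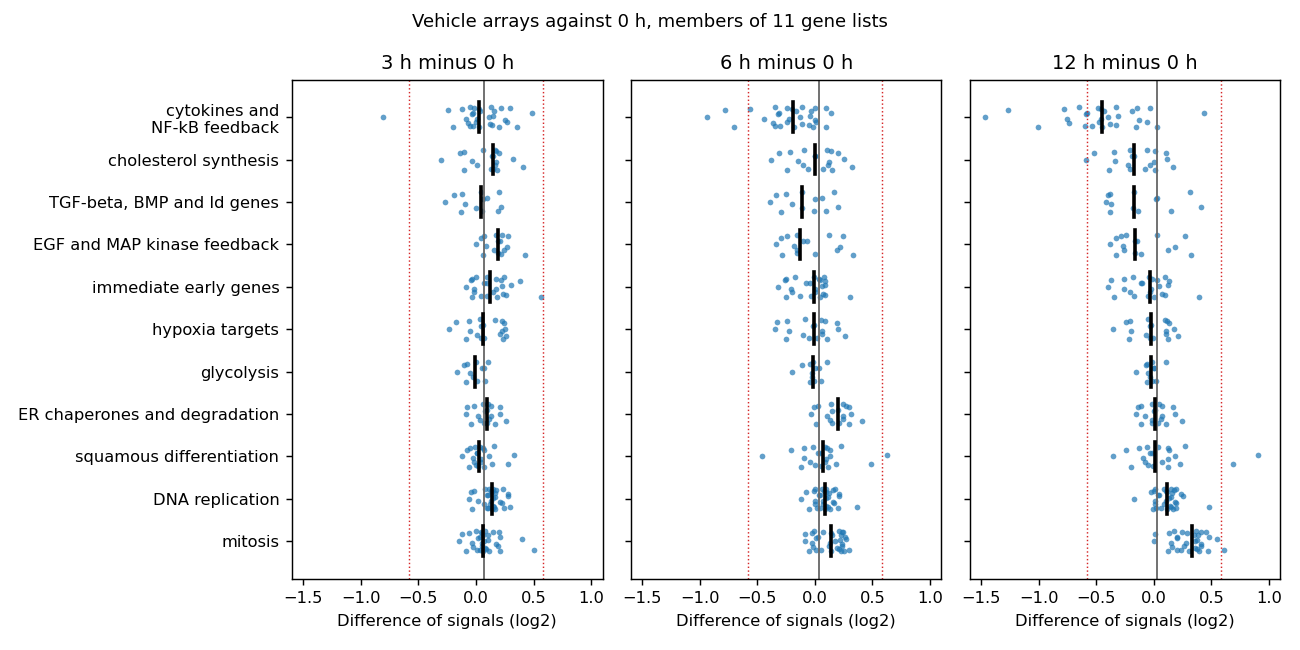
Difference from the 0 h vehicle array (log2, x axis) at 3, 6 and 12 h for the members of 11 gene lists (y axis). Points are genes, black bars list medians, the grey line the median of all 7573 genes, and dotted lines mark 1.5-fold. At 12 h the cytokine median was at -0.45 the mitosis median at 0.33 and the hypoxia median at -0.03, with all genes at 0.03.

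Hypoxia targets stayed near their 0 h level as a group. Of 35 listed genes 19 were members, and none was past 1.3-fold in either direction at 12 h, or past 1.5-fold at any time. The median difference was 0.06, -0.01 and -0.03 at 3, 6 and 12 h, close to that of all genes. From 3 to 6 h, 16 of 19 (84.2%) were lower, beside 60.3% of all genes, by a median of -0.10. Egln3, a prolyl hydroxylase that HIF induces, read 10.69, 10.72, 10.44 and 10.34. Vegfa, the endothelial growth factor, read 9.29, 9.33, 8.94 and 9.07. Slc2a1, the glucose transporter, read 9.78, 9.84, 9.70 and 9.99, and Bnip3, a mitophagy receptor, read 8.19, 8.46, 8.45 and 8.37. Egln3 and Vegfa were thus below 0 h at 6 and 12 h and Slc2a1 and Bnip3 above it at 12 h. The 12 glycolysis members had a median of -0.03 at 12 h, with Ldha at 13.41, 13.31, 13.37 and 13.35. The core of the hypoxia response element, ACGTG on either strand, stood in 7 of 16 hypoxia promoters (43.8%) and in 24.2% of those of analysed genes. Among other lists with more than 1 promoter entry, the share ran from 0% (NRF2 targets) to 50% (5 of 10 clock genes, for example). A high share was thus not particular to hypoxia targets.

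Sterol genes were lower late in the course. The 19 cholesterol synthesis members had medians of 0.15, 0.00 and -0.17 at 3, 6 and 12 h, and all 19 were lower at 12 h than at 6 h, beside 52.2% of all genes. Insig1, which holds back SREBP activation and is itself an SREBP target, read 8.69, 8.39, 8.31 and 8.10 and was lower by 1.5-fold at 12 h. Idi1, an isomerase of the pathway, read 10.38, 10.24, 10.07 and 9.86, and Cyp51, the lanosterol demethylase, read 11.04, 10.93, 10.79 and 10.65. These 3 genes were lower on each array than on the one before and were the 3 of 19 (15.8%) lower by 1.3-fold at 12 h, against 0.911% of all genes. Mvd, a decarboxylase of the mevalonate pathway, read 7.09, 7.50, 7.41 and 7.20 and ended above 0 h.

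ER chaperone genes were mostly above 0 h at 6 h. Of 19 members 17 were above 0 h at 6 h, beside 63.1% of all genes, with a median of 0.20, or 15 with a median of 0.15 when medians were set equal. Against the 3 h array the median at 6 h was 0.08. At 12 h the median was 0.01. Hspa5, the chaperone BiP, read 11.87, 12.08, 12.28 and 11.85, and Manf, a secreted ER stress protein, read 10.82, 10.85, 11.11 and 10.88. No member passed 1.5-fold at any time.

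In the TGF-beta, BMP and Id list 4 of 13 members (30.8%) were lower by 1.3-fold at 12 h, against 0.911% of all genes. Id4, an inhibitor of bHLH factors, read 7.92, 7.82, 7.63 and 7.50, and Id2 read 9.58, 9.31, 9.38 and 9.20. Skil, a brake on SMAD signalling that TGF-beta induces, read 10.58, 10.46, 10.25 and 10.21, and Ccn1 was given above. In the other direction Tgfbi, a matrix protein induced by TGF-beta, read 9.81, 10.03, 9.90 and 10.22, so that the list was not of 1 direction.

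Clock genes showed small differences. Of 22 listed genes 12 were members, and the median was 0.16, 0.02 and 0.09 at 3, 6 and 12 h. Cry2, a repressor of the clock, read 6.91, 7.15, 7.13 and 7.30 and was the only member past 1.3-fold at 12 h. Per1, a period gene, read 7.27, 7.16, 7.16 and 7.26, and Per2 read 7.81, 7.99, 7.86 and 7.89. The E-box CACGTG stood in 3 of 10 clock promoters (30%) and in 9.13% of those of analysed genes, the D-box TTATGTAA in 1 of 10 and 0.326%, and the cAMP response element TGACGTCA in 0 of 10 and 3.34%. Among other lists with more than 1 promoter entry, the E-box share ran from 0% (NRF2 targets, for example) to 50% (6 of 12 FoxO and insulin response members). A high E-box share was thus not particular to clock genes.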

How the data were processed

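RNA of ROE2 cells was labelled from 500 ng of total RNA and hybridized to Affymetrix rat genome expression arrays, 1 array a pool of 3 experiments. The authors deposited log2 signals per probe set that they had normalized between arrays in GeneSpring GX. How signals were summarized and normalized is not stated in the sources used here. Values were used as deposited. Median signals of all probe sets lay between 5.33 and 5.35 on the 4 vehicle arrays.

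Probe sets were named through the platform's annotation: 20832 had 1 symbol, 436 several and 9831 none, and only the first were members. The fold calls at 1.5-fold and 1.3-fold carry no test. limma 3.58.1 in R 4.3.3 (lmFit, eBayes, Benjamini-Hochberg) fitted a slope over hours, and the mean of the later arrays against 0 h, to the 11159 probe sets, named or not, at log2 7 on any vehicle array. Both fits were tested on simulated data. Precision is limited by the number of arrays.

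The members, gene lists and alternatives were chosen with earlier results of these data known. Named genes were the 10 largest differences in each direction at 12 h, the 5 largest at 3 and 6 h, the 5 largest at 12 h among genes that moved one way in each step, the 5 largest at 3 h among genes back within 0.2 at 12 h, up to 4 of each list, and Gapdh. Further genes, Fat2 and list members among them, were named after their values were seen, as were the NF-kB, CCAAT and CHR motifs. Promoters came from RefSeq (GRCr8). Alternatives were other folds, filters, baselines, scalings, probe set rules and fits without single arrays.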

Additional observations from a re-analysis of the deposited data

How the results depend on the processing

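With 1 array a time, no difference had a replicate, and dim signals near log2 7 limit the smaller ones. The 14, 10 and 34 genes past 1.5-fold at 3, 6 and 12 h became 0, 0 and 3 at 2-fold, 164, 112 and 218 at 1.3-fold, and 293, 128 and 190 without a signal filter. Genes reaching log2 8 gave 4, 5 and 19, and the mean of the 4 vehicle arrays as baseline gave 3, 0 and 4. A mean signal of log2 7 gave 8 at 3 h and quantile normalization 6 at 6 h. The cause was not tested, beyond the number of genes that each filter leaves. The other settings for these counts, the 3 h array as baseline (added after seeing the data, 12 higher and 27 lower at 12 h) among them, stayed within 1.5 times. Both limma fits called 0 probe sets under every alternative run, the fits without single arrays included, and those without vehicle at 3, 6 or 12 h gave 0 calls. All 133 named genes moved by at most 0.1 at 12 h under quantile normalization and 125 under the mean of their probe sets, with 4 and 2 changes of sign, none of them past 1.5-fold. Against the 3 h array 96 moved further than 0.1 and 42 changed sign, and of 25 past 1.5-fold 14 remained so. Pdcl1-ps1 was at -0.26 in place of 0.62. No paired analysis was possible because each time has 1 array.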

Other observations

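Further lists held a few differences of 1.3-fold or more at 12 h. Of 15 FoxO and insulin response members 3 (20%) were higher, against 1.97% of all genes. Pik3ip1, a PI3K inhibitor that FoxO induces, read 6.48, 6.43, 6.71 and 7.04 at 0, 3, 6 and 12 h. It passed the limit only through the 12 h array, on which it was high, so its place in this count follows from its difference. Irs2, an insulin receptor substrate that is also a FoxO target, read 9.03, 8.92, 9.24 and 9.42, and Arrdc3, an arrestin domain protein, read 8.54, 8.68, 8.99 and 8.94. All of these 3 were near 0 h at 3 h and higher from 6 h on.

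Dll1, a Notch ligand, read 6.76, 6.68, 7.02 and 7.28, and reached the limit only on the last 2 of these arrays. Hes1, a Notch target, read 9.99, 10.26, 10.30 and 10.29. Klf3 and Klf5, Kruppel-like factors of epithelium, read 9.36, 9.51, 9.65 and 9.69, and 10.50, 10.57, 10.69 and 10.79. Aldh3a1, an NRF2-linked aldehyde dehydrogenase, read 9.29, 9.29, 9.45 and 9.64, while Hmox1 of the same list read 9.48, 9.45, 9.31 and 9.23, and the list's median at 12 h was 0.01.

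Myh1, a skeletal muscle myosin, read 9.92, 9.80, 9.51 and 9.44, and was the only one of 7 muscle markers above the limit. These values came from the brightest of its 5 probe sets, whose name marks probes that match other sequences too. The 1823 probe sets without a single symbol that reached the limit held 7 that were higher and 9 that were lower by 1.5-fold at 3 h. At 6 h these counts were 7 and 2, and at 12 h they were 18 and 4.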
